A study of Homo sapiens with 5 samples.

Results

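The E2F transcription factors and their DP partners were followed in Ishikawa cells, a long-established line from a human endometrial carcinoma, after silencing of the long non-coding RNA LINC00958. The 10 genes, E2F1 to E2F8 with TFDP1 and TFDP2, were taken by symbol from a table of 58174 genes. All 10 were in the table once each and had a mean of at least 1 TPM (an abundance scaled for gene length and library total), the minimum for testing. A lentiviral hairpin against LINC00958 was present in 3 libraries (sh-LINC00958) and its negative control in 2 (sh-NC). Every library came from infected cells that were selected with puromycin at 2.5 µg/ml, begun 72 h after infection. The hairpin sequences, the number of hairpins, the genotype of the line, the harvest time and the strand setting of the counting were not given by the labels. The comparison asked which of these factors change when LINC00958 is silenced, and E2F3 is the member that the study's authors have tied to this RNA. The labels do not say whether replicates were separate cultures, so the spread behind each p-value is that of these samples and may be technical.

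E2F proteins bind promoters of genes needed for DNA replication and cell division, and most of them do so as a dimer with a DP protein, which TFDP1 or TFDP2 encodes. E2F1, E2F2 and E2F3 mainly activate transcription and are held in check by the retinoblastoma protein RB1. E2F4 and E2F5 mainly repress together with the related pocket proteins, E2F6 represses as part of a Polycomb complex without pocket proteins, and the atypical members E2F7 and E2F8 repress without a DP partner. Several of these genes carry E2F sites in their own promoters and are themselves E2F targets.

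Promoter sequences are shown for the 4 members that passed the test described below (TFDP1, E2F7, E2F1 and E2F4) and for E2F2 and E2F3, which with E2F1 form the activating class. They come from RefSeq (GRCh38.p14), in windows of 300 bases that run from 250 before to 50 after a transcription start. RefSeq windows were found for 8 of the 10 members (11 windows, since TFDP2 and E2F3 have several starts). The E2F consensus was searched on both strands as 4 spellings of 8 letters, TTTCCCGC, TTTCGCGC, TTTGCCGC and TTTGGCGC. A match stood in a window of 4 of these 8 members, E2F1, E2F2, E2F3 and TFDP1. Counted by window this was 4 of 11, against 3.31% of all 35116 windows. Only bases outside annotated exons of the gene are printed, 5′ to 3′ along the gene, and capitals mark a match on either strand.
E2F1, chr20:33686405-33686520, minus strand: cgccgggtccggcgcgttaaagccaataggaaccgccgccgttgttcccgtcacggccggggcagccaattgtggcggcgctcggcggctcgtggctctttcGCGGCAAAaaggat
E2F2, chr1:23531234-23531349, minus strand: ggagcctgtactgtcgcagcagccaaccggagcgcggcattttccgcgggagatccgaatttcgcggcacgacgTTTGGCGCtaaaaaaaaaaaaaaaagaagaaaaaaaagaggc
E2F3, chr6:20401763-20401873, plus strand: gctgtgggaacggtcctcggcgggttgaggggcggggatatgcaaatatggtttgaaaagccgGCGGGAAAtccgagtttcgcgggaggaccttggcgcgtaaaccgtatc
TFDP1, chr13:113584605-113584680, plus strand: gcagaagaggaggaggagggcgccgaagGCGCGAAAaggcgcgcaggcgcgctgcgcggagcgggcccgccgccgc
E2F7, chr12:77065581-77065680, minus strand: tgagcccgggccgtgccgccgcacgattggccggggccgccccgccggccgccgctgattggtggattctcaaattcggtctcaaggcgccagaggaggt
E2F4, chr16:67192055-67192154, plus strand: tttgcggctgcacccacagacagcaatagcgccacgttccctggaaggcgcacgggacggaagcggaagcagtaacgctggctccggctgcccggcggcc
In E2F1 the capitals are TTTGCCGC on the opposite strand, at 33686411 to 33686418. A second match there, TTTGGCGC at 33686398 to 33686405, lies largely in the annotated first exon and is not drawn. TFDP1 holds TTTCGCGC on the opposite strand, 120 bases before the start. E2F7 and E2F4 hold none of these letters in the window, which says nothing about E2F binding there. These matches describe sequence only.

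The table is one of infected, drug-selected cultures, and its libraries held 28436 to 29411 genes above 0 in sh-LINC00958 and 27896 and 28086 in sh-NC, ranges that did not overlap. Ribosomal protein genes took 11.03% to 12.5% of TPM in sh-LINC00958 and 10.8% and 10.9% in sh-NC, again without overlap, and mitochondrial genes 12.9% to 14.97% over both groups, with overlap. The part of these differences in the members' values was not tested. Depth is unknown, since TPM keeps none. LINC00958 measured 67.2, 67.1 and 58.4 TPM in sh-LINC00958 and 119 and 137 TPM in sh-NC, so the silenced libraries retained 50.04% of the control level. The epithelial markers EPCAM, KRT8, KRT18, KRT19, CDH1 and PAX8 summed with ESR1 and PGR to 2334 to 2514 TPM in sh-LINC00958 and 2349 to 2358 TPM in sh-NC, but the steroid receptor genes ESR1 and PGR were under 1 TPM in every library. Of 6 blood and 6 fibroblast markers, 6 and 5 were under 1 TPM in every library, and their sums stayed between 0.494 and 0.839 TPM and between 4.95 and 5.87 TPM. The 5 endothelial markers summed to 4.39 to 5.89 TPM in sh-LINC00958 and 6.51 to 6.90 TPM in sh-NC.

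Members moved in both directions. The DP gene TFDP1 and the atypical repressor gene E2F7 fell, the activator gene E2F1 and the repressor gene E2F4 rose slightly, and the other 6 members did not pass. TFDP1 was present at 43.3% of its control level and E2F7 at 52.1%, while E2F1 and E2F4 both stood at 128%. Calls required a Benjamini-Hochberg adjusted p under 0.05 in limma, fitted over all 17049 tested genes on log2(TPM + 1), and every fold change below is on that scale. The family's 4 calls (2 lower, 2 higher) stand beside 9.80% of all tested genes called, 5.68% lower and 4.12% higher. All 4 calls were lost in some of the other settings described below, those of E2F1 and E2F4 in the most. Groups did not overlap for 7 of the 10 members (5 lower, 2 higher), against 49.9% of all tested genes (25.5% lower and 24.4% higher). The median log2 fold change of the 10 members was -0.18, against 0.0014 over all tested genes.

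**Figure D1:**
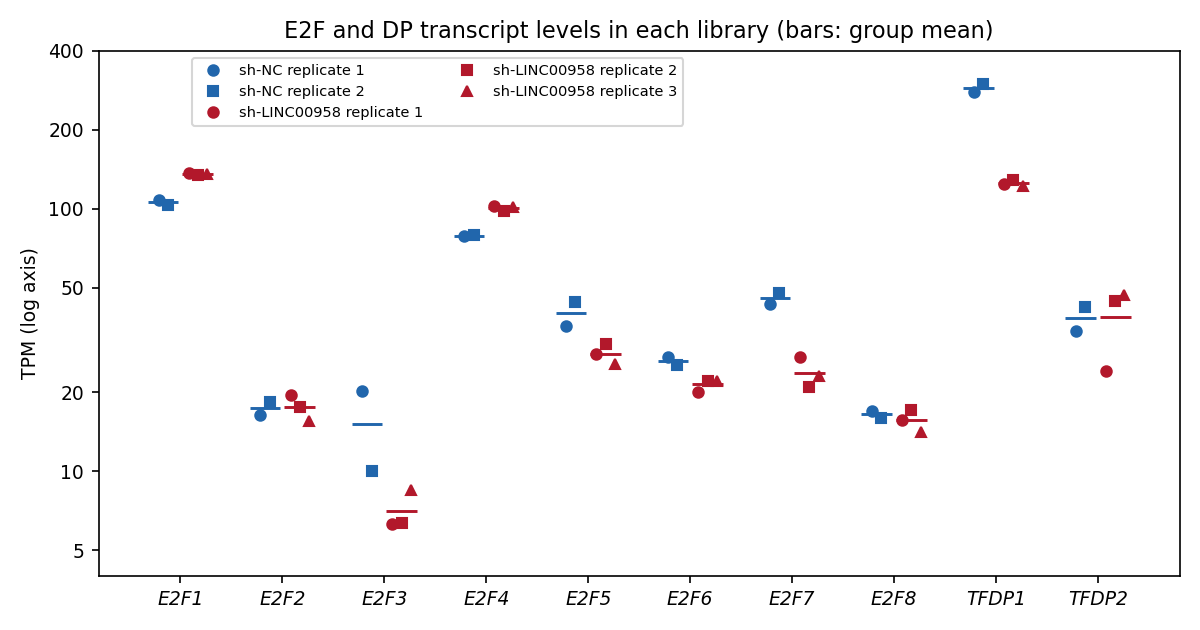
TPM of each E2F and DP gene (x axis) in each library on a log axis, with 1 point per library, blue for sh-NC, red for sh-LINC00958 and a bar at each group mean. TFDP1 drops from 279 and 300.0 TPM to between 122 and 129 TPM, E2F7 lies lower and E2F1 and E2F4 slightly higher in sh-LINC00958, and the sh-NC points of E2F3 lie far apart.

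TFDP1 encodes DP1, the dimer partner that gives E2F1 to E2F6 stable DNA binding. The gene (ENSG00000198176, protein-coding, GRCh38 chromosome 13, 113584721 to 113641470, plus strand) measured 125, 129 and 122 TPM in sh-LINC00958 and 279 and 300.0 TPM in sh-NC. All 3 silenced libraries lay far below both controls, with little spread in either group. TFDP1 thus averaged 125 ± 3.27 TPM (SD, n = 3) after silencing, against 289 ± 14.9 TPM (SD, n = 2). TFDP1 fell by 1.20 on the log2 scale, with a 95% interval of -1.38 to -1.02 (limma adjusted p = 0.00467). Of all tested genes, 122 had a lower fold change. For TFDP1 the exact permutation p (two-sided) was 0.1, the floor for 3 libraries against 2, and it was the same for every member whose groups did not overlap. The TFDP1 call was lost without sh-NC replicate 2 (log2 fold change -1.15, limma adjusted p = 0.0572) and held without each of the other libraries. In bulk RNA, fewer cells with a transcript and less of it per cell cannot be told apart.

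TFDP2, the gene of the second partner DP2, did not pass. The gene (ENSG00000114126, chromosome 3, 141944428 to 142149544, minus strand) had 24.1, 44.6 and 47.0 TPM in sh-LINC00958 and 34.2 and 42.3 TPM in sh-NC. The groups overlapped, and sh-LINC00958 replicate 1 alone lay below both controls while replicates 2 and 3 lay above them. The log2 fold change was -0.04 with a wide 95% interval, -0.77 to 0.69 (limma adjusted p = 0.945), and it was 0.26 without sh-LINC00958 replicate 1. Since TFDP1 fell, its share of DP transcripts went from 89.1% and 87.6% in sh-NC to 83.8%, 74.3% and 72.3% in sh-LINC00958. TFDP3, a DP-family gene outside the 10 members, was between 0.520 and 0.856 TPM in all libraries.

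E2F1, the founding activator, was the most abundant E2F gene in both groups. It (ENSG00000101412, chromosome 20, 33675683 to 33686404, minus strand) had 136, 135 and 136 TPM in sh-LINC00958 and 108 and 104 TPM in sh-NC. The groups did not overlap and the silenced libraries were almost identical. E2F1 rose by 0.35 on the log2 scale, with a 95% interval of 0.19 to 0.52 and a limma adjusted p = 0.0351. E2F2 (ENSG00000007968, chromosome 1, 23506430 to 23531220, minus strand), a second activator, had 19.5, 17.6 and 15.5 TPM against 16.4 and 18.3 TPM in sh-NC. Its groups overlapped, and its fold change was 0.0085 (log2), within -0.31 to 0.32 (limma adjusted p = 0.973).

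E2F3, the third activator, is the member to which the study linked LINC00958. It (ENSG00000112242, chromosome 6, 20401906 to 20493715, plus strand) had 6.28, 6.37 and 8.52 TPM in sh-LINC00958 and 20.3 and 10.0 TPM in sh-NC. Both controls lay above all 3 silenced libraries, but sh-NC replicate 2 stood nearer to them than to sh-NC replicate 1. The SD of the controls was 47.9% of their mean, against 0.229% to 15.04% for the other 9 members. The E2F3 log2 fold change of -0.94 (95% interval -1.66 to -0.21) did not pass (limma adjusted p = 0.0985). It did not pass in any of the 12 other settings or the 5 fits with a library left out, where it ran from -0.46 without sh-NC replicate 1 to -1.41 without sh-NC replicate 2. The SD of E2F1 in the same controls was 3.22% of its mean, so the E2F1 to E2F3 ratio within a library also varied most in sh-NC, at 5.34 and 10.3, against 21.7, 21.2 and 15.9 in sh-LINC00958.

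E2F4, the main repressor E2F of resting cells, rose. The gene (ENSG00000205250, chromosome 16, 67192169 to 67198918, plus strand) had 102, 98.0 and 102 TPM in sh-LINC00958 and 78.9 and 79.2 TPM in sh-NC, without overlap. E2F4 thus gained 0.35 on the log2 scale, within a 95% interval of 0.17 to 0.52 (limma adjusted p = 0.0388). E2F5, the other pocket-protein repressor (ENSG00000133740, chromosome 8, 85177225 to 85217158, plus strand), had 27.9, 30.5 and 25.6 TPM against 35.9 and 44.1 TPM. Its groups did not overlap, and its log2 fold change of -0.50 (95% interval -0.81 to -0.18) did not pass (limma adjusted p = 0.0651). E2F5 shares 969 exonic bases with C8orf59 on the opposite strand, a gene at 214 to 307 TPM with a log2 fold change of -0.30 (limma adjusted p = 0.123). Without a stated strand setting reads of that stretch cannot be assigned, so the E2F5 level is uncertain. The within-library ratio of E2F4 to E2F5 was 3.67, 3.22 and 3.99 in sh-LINC00958 and 2.20 and 1.79 in sh-NC.

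E2F6, the Polycomb-linked repressor (ENSG00000169016, chromosome 2, 11444375 to 11466177, minus strand), had 20.1, 22.1 and 22.1 TPM in sh-LINC00958 and 27.3 and 25.5 TPM in sh-NC. The groups did not overlap, with a log2 fold change of -0.29 (95% interval -0.53 to -0.05) that did not pass (limma adjusted p = 0.117). Its 4 annotated pseudogenes, together with those of E2F3 and E2F4, the intronic transcript E2F3-IT1 and TFDP3, make up the 9 other rows with an E2F or TFDP symbol. Of these, 8 were under 1 TPM in every library and E2F6P1 reached 1.03 TPM in a single library.

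E2F7 and E2F8 share a tandem DNA-binding domain and act on many of the same promoters, yet only E2F7 passed. E2F7 (ENSG00000165891, chromosome 12, 77021247 to 77065580, minus strand) had 27.3, 20.9 and 23.0 TPM in sh-LINC00958 and 43.5 and 47.6 TPM in sh-NC. The groups stood well apart. E2F7 fell by 0.92 on the log2 scale (95% interval -1.24 to -0.59, limma adjusted p = 0.0211). That call held without sh-LINC00958 replicate 2 and was lost on leaving out replicate 1 (limma adjusted p = 0.0525), replicate 3 (0.0614) or either sh-NC library (0.11 and 0.132 for replicates 1 and 2). The E2F7 log2 fold change stayed between -1.02 and -0.84 in these fits. E2F8 (ENSG00000129173, chromosome 11, 19224063 to 19241620, minus strand) had 15.7, 17.2 and 14.1 TPM against 17.02 and 15.9 TPM, with overlap. E2F8 differed by -0.07 (log2), within a 95% interval of -0.36 to 0.22 (limma adjusted p = 0.733). The E2F7 to E2F8 ratio was 1.73, 1.22 and 1.63 in sh-LINC00958 and 2.55 and 2.99 in sh-NC, and the difference between their folds was not tested.

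The calls of E2F1 and E2F4 rested on more than 1 library. Leaving out sh-LINC00958 replicate 1 ended both (limma adjusted p = 0.123 for E2F1 and 0.135 for E2F4). So did leaving out replicate 3 (0.0864 and 0.0963) or either control, replicate 1 (0.143 and 0.168) or 2 (0.181 and 0.177). Their size barely moved, from 0.32 to 0.39 for E2F1 and from 0.34 to 0.37 for E2F4 on the log2 scale. With no filter on low genes E2F1, E2F4 and E2F7 were not called (limma adjusted p = 0.0607, 0.0628 and 0.0560), and without the mean-variance trend E2F1 and E2F4 were not (0.0772 and 0.0807). Among the fits with a library left out, only the one without sh-LINC00958 replicate 2 kept all 4 family calls.

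**Figure D2:**
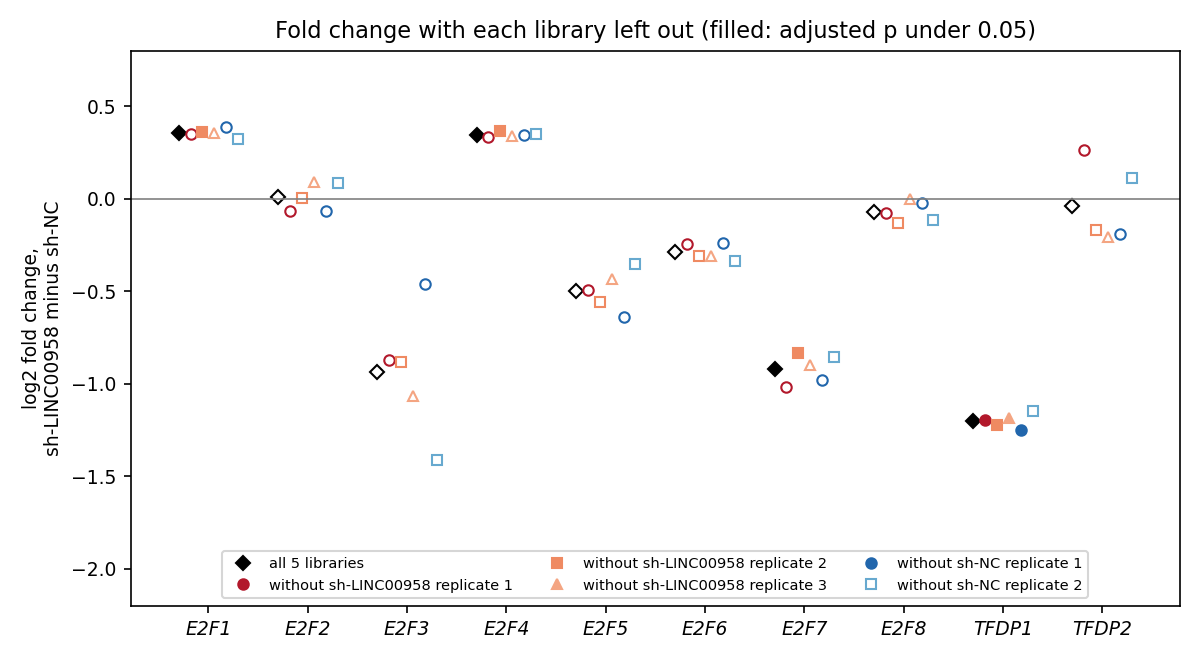
Log2 fold change (y axis) of each member with all 5 libraries and with each library left out, filled where the limma adjusted p was under 0.05. TFDP1 stays between -1.25 and -1.15 in every fit, whereas E2F3 runs from -1.41 to -0.46 depending on which control is left out.

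Transcript base composition moved with part of these results. The GC content of annotated transcripts was 62.5% for E2F1, 59.3% for E2F4 and 56.7% for E2F2, the 3 highest and also the 3 members with fold changes above 0. It was 53.1% for TFDP1 and between 40.02% and 46.4% for the other 6 members, whose fold changes were all below 0. After the trend of each library on GC content and exon length was removed, TFDP1 (log2 fold change -1.28, limma adjusted p = 0.00223) and E2F7 (-0.81, limma adjusted p = 0.0429) were still called lower. E2F1 shrank to 0.15 (limma adjusted p = 0.219) and E2F4 to 0.17 (limma adjusted p = 0.141), and neither was called. E2F5 shrank from -0.50 to -0.19, E2F6 from -0.29 to -0.20 and E2F3 from -0.94 to -0.83. E2F2 and TFDP2, near 0 in both fits, changed sign (-0.13 and 0.02).

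**Figure D3:**
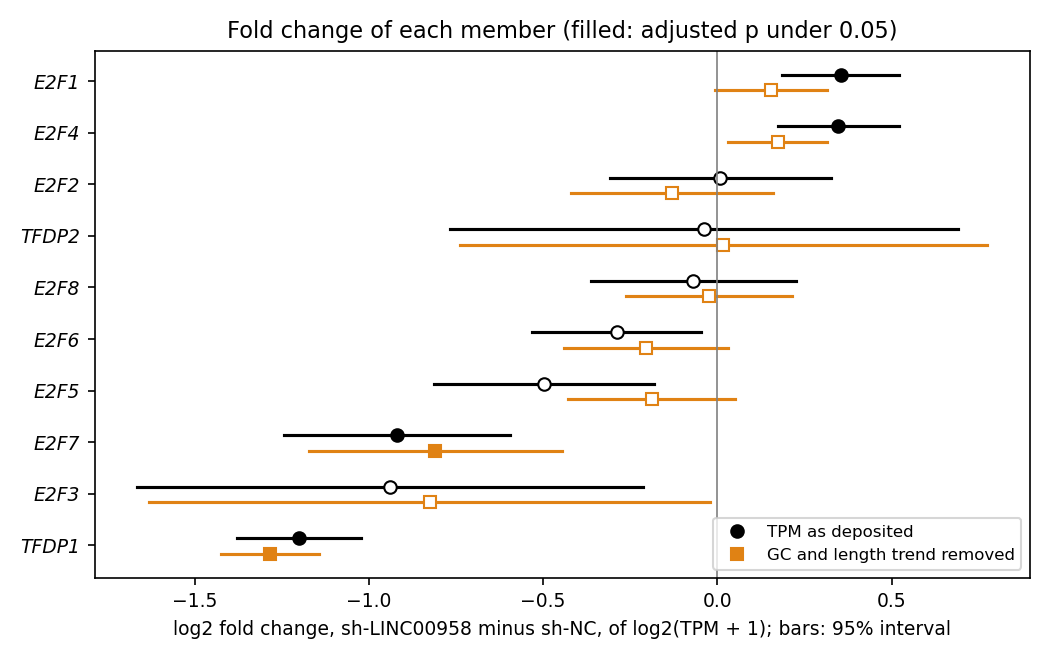
Log2 fold change (x axis, sh-LINC00958 minus sh-NC) with its 95% interval for each member, from TPM as deposited (black circles) and with the GC and length trend taken out (orange squares), filled where the adjusted p was under 0.05. TFDP1 and E2F7 are filled in both fits, E2F1 and E2F4 only in the first.

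Set in order of level, sh-NC had TFDP1 first, then E2F1 and E2F4, each with library ranges apart from the next. E2F7 (mean 45.5 TPM), E2F5 (39.99 TPM) and TFDP2 (38.2 TPM) followed with overlapping neighbours, then E2F6 (26.4 TPM), and last E2F2, E2F8 and E2F3 (17.4, 16.5 and 15.2 TPM), whose neighbours overlapped. In sh-LINC00958 the order began with E2F1 (mean 136 TPM), TFDP1 (125 TPM) and E2F4 (101 TPM), again with ranges apart. TFDP2 (38.6 TPM), E2F5 (27.97 TPM), E2F7 (23.7 TPM) and E2F6 (21.4 TPM) overlapped each with the next, as did E2F2 (17.5 TPM) with E2F8 (15.7 TPM). E2F3 stood alone at the bottom with 7.05 TPM. TFDP1 thus lost the first place to E2F1, and E2F7 went from rank 4 to rank 6.

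Summed over the family, E2F transcripts hardly differed between groups while their makeup did. The 8 E2F genes together had 355, 348 and 346 TPM in sh-LINC00958 and 348 and 344 TPM in sh-NC, and these ranges overlapped. The activators E2F1 to E2F3 summed to 162, 159 and 160 TPM in sh-LINC00958 and 145 and 132 TPM in sh-NC, and E2F4 to E2F6 to 149.6 to 150.6 TPM and 142 and 149 TPM. The atypical genes E2F7 and E2F8 made up 12.1%, 10.95% and 10.7% of E2F transcripts in sh-LINC00958 and 17.4% and 18.4% in sh-NC. E2F1 held 38.4%, 38.8% and 39.2% against 31.2% and 30.1%. DP transcripts summed to 313 and 342 TPM in sh-NC and 149, 173 and 169 TPM in sh-LINC00958. The ratio of DP to DP-dependent E2F transcripts (E2F1 to E2F6) was 0.476, 0.561 and 0.548 in sh-LINC00958 and 1.09 and 1.22 in sh-NC. A ratio within a library does not change when all values of that library are multiplied by a common factor. It does depend on a library's trend on GC content and length where the genes differ in these. That trend was not removed from any sum, share or ratio given here. E2F1 and TFDP1 stood near 1 to 1 in sh-LINC00958 (1.09, 1.05 and 1.11) and at 0.388 and 0.345 in sh-NC. These sums follow from the members chosen and were not tested.

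**Figure D4:**
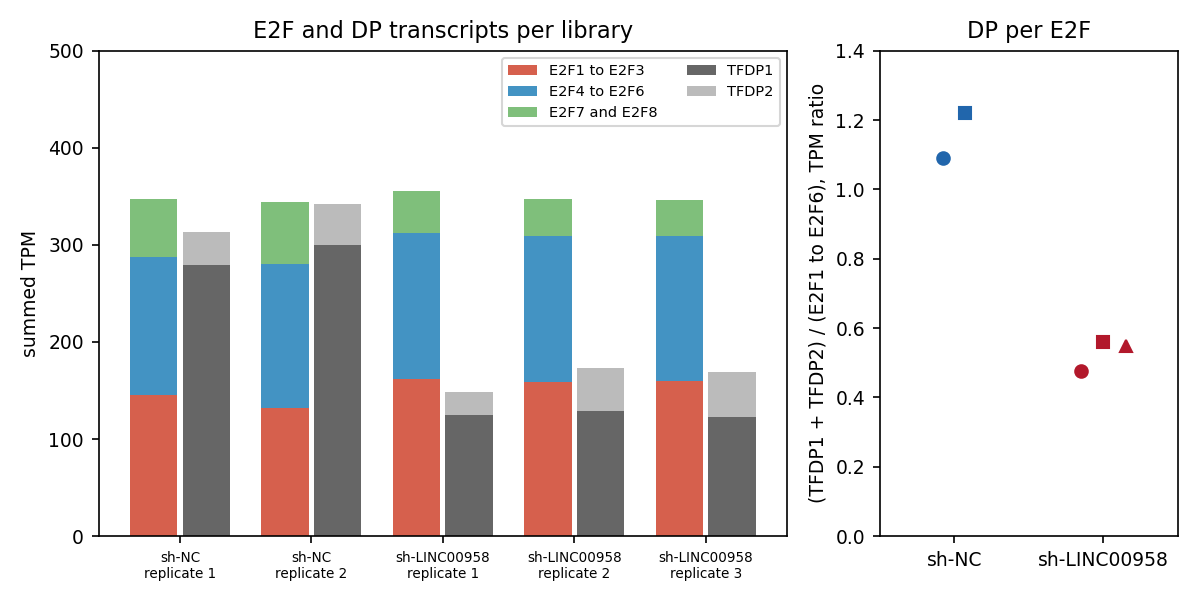
Left, summed TPM per library of E2F genes by class (first bar) and of DP genes (second bar), stacked from 0. Right, the within-library ratio of DP to E2F1 to E2F6 transcripts, with blue points for sh-NC and red for sh-LINC00958, which lies at 1.09 and 1.22 in sh-NC and between 0.476 and 0.561 in sh-LINC00958.

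Regulators of E2F proteins were read from lists chosen with earlier results of these data known, and are described by counts beside the table's 5.68% lower and 4.12% higher. Of the 3 pocket protein genes, RB1 fell from 12.01 ± 0.990 TPM (SD, n = 2) to 6.86 ± 1.07 TPM (SD, n = 3), which is -0.74 on the log2 scale (limma adjusted p = 0.0437). RBL1 (-0.17) and RBL2 (-0.0010) did not pass. With the GC and length trend taken out RB1 was at -0.39 and not called (limma adjusted p = 0.130), and the list had 0 calls with no filter and 0 without the mean-variance trend. None of the 8 genes of the MuvB core and its MYB and FOXM1 partners, which couple E2F4 repression to mitotic gene activation, passed in limma (3 had an unadjusted p under 0.05), and 0 were called after the GC and length removal. The smallest p-values were those of LIN54 (-0.34, limma adjusted p = 0.0825) and LIN9 (-0.51, limma adjusted p = 0.101). FOXM1, singled out after its values were seen, had 204, 79.1 and 195 TPM in sh-LINC00958 and 77.3 and 79.1 TPM in sh-NC. Silenced replicates 1 and 3 stood far above the controls and replicate 2 level with them. The FOXM1 fold change was 0.90 (log2), within -0.11 to 1.90, and did not pass (limma adjusted p = 0.199). This list had 1 gene called higher without sh-LINC00958 replicate 2 and 0 calls without each of the other libraries, and 1 called lower with library quality weights.

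Among 12 tested G1 cyclins, kinases and CDK inhibitors, which set how tightly RB1 holds E2F, 2 fell and 0 rose in limma (1 at an unadjusted p under 0.05). CCND1, cyclin D1, had a log2 fold change of -0.74 (limma adjusted p = 0.0103) and CDKN1B, the inhibitor p27, of -0.67 (limma adjusted p = 0.0217). With the GC and length trend taken out the same 2 were called lower (-0.87 and -0.66, limma adjusted p = 0.00876 and 0.0195) and 0 higher. With a library left out, the pocket protein list had 1 call without sh-LINC00958 replicate 2 and 0 otherwise, and the G1 list had 3 lower without replicate 2, 1 without replicate 3 and 0 without replicate 1 or either control. With no filter 1 gene of the G1 list was lower. CCND2 was under 1 TPM in every library and was not tested. Of 4 genes for turnover of E2F proteins none passed in limma (2 had an unadjusted p under 0.05), FZR1 (0.38, limma adjusted p = 0.0880) and CDC20 (-0.20, limma adjusted p = 0.145) having the smallest p-values. CDC20 was called lower after the GC and length removal (-0.38, limma adjusted p = 0.0325). Of 12 partners of E2F6 in its Polycomb complex, CBX3, the chromodomain subunit, fell (-0.67, limma adjusted p = 0.0126), as did RYBP (-0.53, limma adjusted p = 0.0458), and the deacetylase gene HDAC1 rose (0.32, limma adjusted p = 0.0400). Only CBX3 was called after the GC and length removal (-0.38, limma adjusted p = 0.0351). With no filter, and likewise without the mean-variance trend, 1 partner was lower and 0 higher, so HDAC1 was not called in either. With a library left out, 3 partners were lower and 1 higher without sh-LINC00958 replicate 2, 1 was lower without replicate 3, and 0 were called without replicate 1 or either control. Germline genes that E2F6 keeps silent stayed low. Of 11 listed, 8 were under the 1 TPM minimum for testing and none of the 3 tested passed in limma (0 at an unadjusted p under 0.05), with STAG3 (0.33, limma adjusted p = 0.195) and STK31 (-0.27, limma adjusted p = 0.406) first.

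Listed target genes of the E2F factors, with roles in DNA replication and cell division, split. Of 56 tested, 9 fell (16.1%), 0 rose in limma (6 at an unadjusted p under 0.05) and 47 did not pass. Over all tested genes 5.68% were called lower and 4.12% higher. The median log2 fold change of the 56 targets was -0.11, and this list too was chosen with earlier results of these data known. The clamp loader gene RFC3 went from 78.7 ± 4.39 to 24.2 ± 2.41 TPM, the kinase gene CDK1 from 280 ± 17.5 to 118 ± 14.5 TPM, and CCNA2, cyclin A2, from 174 ± 10.2 to 96.9 ± 7.89 TPM (SD, n = 2 and 3). EZH2 (log2 fold change -0.48), CCNE2 (26.9 ± 5.47 against 54.3 ± 5.19 TPM), CCNE1 (-0.42), CHEK1 (-0.48) and GINS1 (-0.62) fell as well, with limma adjusted p-values between 0.0271 and 0.0351, as did DSCC1 (-0.69, limma adjusted p = 0.0369), which completes the count. With the GC and length trend taken out 5 were called lower, RFC3, CDK1, CCNA2, CCNE1 and GINS1. The replication genes PCNA (-0.02), MCM6 (-0.03), TYMS (-0.04) and CDC6 (-0.10), classic E2F targets looked up after the values were seen, did not pass, with limma adjusted p-values of 0.899, 0.816, 0.751 and 0.414. MCM3 (0.23), MCM5 (0.28), MCM2 (0.18) and MCM7 (0.15) had fold changes above 0 and MCM4 (-0.24) below, none of them called. The count of lower targets was 13 without sh-LINC00958 replicate 2, 1 without replicate 1, 3 without replicate 3, and 1 and 0 without the first and the second control. It was 3 with no filter and 4 without the mean-variance trend. With library quality weights 15 targets were lower and 2 higher, and with quantile normalization 10 were lower and 1 higher. CDK1 and CCNA2 vary with the position of cells in the cycle, as E2F1 and E2F7 do, and the part of such a shift in the members' values was not tested.

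**Figure D5:**
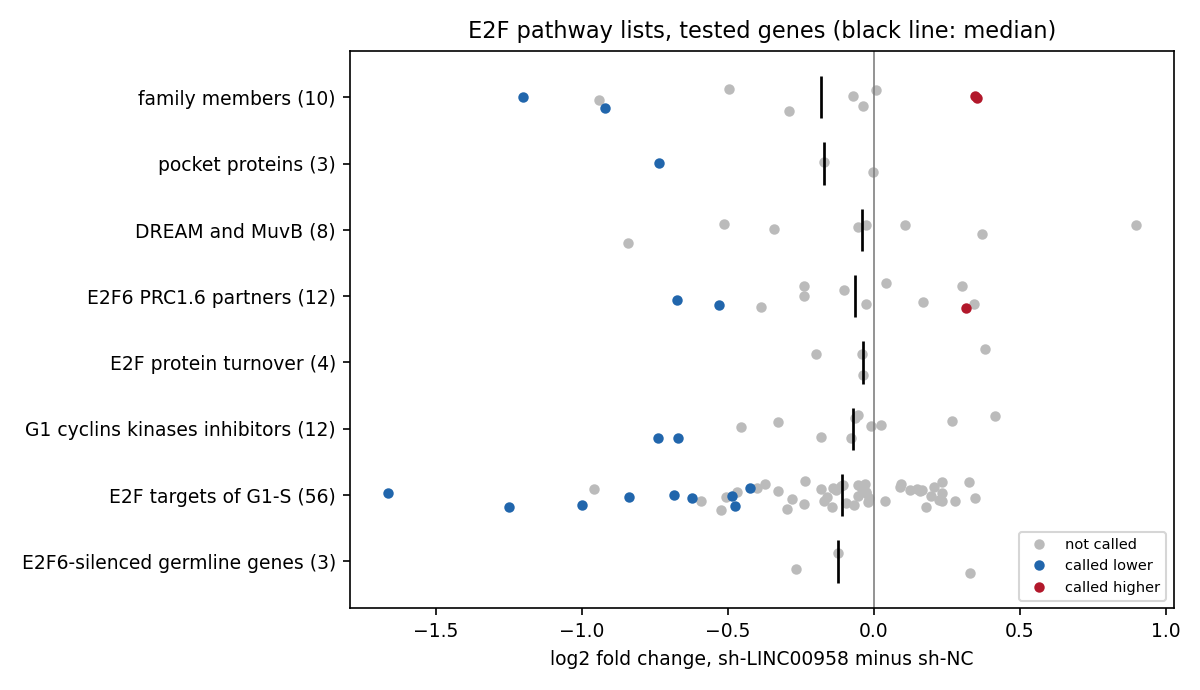
Log2 fold change (x axis) of every tested gene in the family and in the 7 E2F pathway lists (rows, number tested in brackets), blue where called lower, red where called higher, with a black line at each median. The list medians lie between -0.18 and -0.04, and the 9 calls among E2F targets are all lower.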

How the data were processed

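RNA sequencing was done on 5 libraries of Ishikawa cells, 3 sh-LINC00958 and 2 sh-NC, grouped by their titles. The deposited values are TPM in 1 table. Tools named, without roles, in the submitters' processing notes are StringTie 1.3.3b, HISAT2 2.0, Trimmomatic 0.36 and FastQC 0.11.2, with the build GRCh38. The annotation release is not given in the sources used here. TPM gives every library the same total, so a value depends on all other RNAs of that library, and depth is unknown. Of the IDs, 57836 were found in GENCODE release 29, the source of coordinates, GC content and exon length.

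The whole table was fitted with limma 3.58.1 in R 4.3.3 (eBayes with trend) on log2(TPM + 1) for 17049 genes with a mean of at least 1 TPM, with two-sided tests and p-values adjusted by Benjamini-Hochberg across all of them. The script was tested on simulated data. GC content and length were removed by additive splines with 5 degrees of freedom each, per library. Other settings were no filter, a mean of at least 5 TPM, pseudocounts of 0.1 and 5, median-ratio and quantile scaling, no trend, robust eBayes, library weights, a replicate block and each library left out. Members and lists were chosen with earlier results of these data known. All 10 members are named. Of other lists, called genes (up to 8 by smallest p) or, with none called, the 2 smallest p-values are named. The results of 1 further list are not reported here. Library pairs with identical values numbered 0.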

Additional observations from a re-analysis of the deposited data

How the results depend on the processing

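Over 12 other settings, TFDP1 was called lower in 10 and E2F7 in 9, E2F1 and E2F4 were called higher in 7 each, E2F5 was called lower in 1 (library quality weights, limma adjusted p = 0.0352), and E2F2, E2F3, E2F6, E2F8 and TFDP2 were called in none. Members called lower numbered 2, but 1 with no filter and 3 with library quality weights, and members called higher numbered 2, but 0 with no filter, with no trend and with the GC and length trend removed. Over the table, 969 genes were lower and 702 higher, against 269 and 207 with no filter, 518 and 371 with no trend, 1851 and 1428 with library quality weights, and 445 and 413 with the GC and length trend removed. With a replicate block, 0 members were lower and 0 higher, and 2 and 0 genes over the table. With the GC and length trend removed and the replicate block together these were 0, 0, 0 and 0. TFDP1 had limma adjusted p-values of 0.104 and 0.131 in these fits, at -1.18 and -1.28. The block leaves few residual degrees of freedom. It also gives sh-LINC00958 replicate 3, which has no control of that number, a term of its own. That library then adds nothing to the fold changes, which match those without it (TFDP1 at -1.18 in both). Same-numbered deviations correlated across genes at 0.0013 for replicate 1 and 0.05 for replicate 2. The labels do not say whether equal numbers mark pairs, and why calls were lost with the block was not tested. With each library left out, members called lower ranged from 0 to 2 and members called higher from 0 to 2, and genes over the table from 6 to 1491 lower and from 10 to 905 higher. Where 1 sh-NC library remained, it was assumed to vary like the others. Signs changed only for members near 0. E2F2 was at -0.13 and TFDP2 at 0.0173 with the GC and length trend removed, and E2F2 at -0.0488 and E2F8 at 0.0203 when the replicate block was added. With a library left out E2F2 ranged from -0.0662 to 0.0884 and TFDP2 from -0.21 to 0.26. The cause of these changes was not tested. TPM holds no depth, so counting error could not be given.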

Other observations

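Genes beside the members differed from member to member. They were read in the main fit only, with neither the GC and length trend removed nor a library left out. The part of that trend in their values was not tested. The 4 nearest tested protein-coding genes on each side of TFDP1, looked up after its value was seen, had log2 fold changes between -0.23 and 0.55 (median -0.03), and limma called 0 of the 8. TMCO3 (0.19) and DCUN1D2 (-0.11) are the nearest before TFDP1, and GAS6 (-0.0088) the nearest after it. Around E2F3 all 8 had values below 0 (-1.38 to -0.15), and limma called 3 lower: MBOAT1 (-0.90, adjusted p = 0.0321), the chromatin protein gene DEK (-1.38, adjusted p = 0.0146) and MRS2 (-0.60, adjusted p = 0.0420). Of the 8 around E2F7, limma called 3 lower and 0 higher (median log2 fold change -0.44). Around E2F4 all 8 had values above 0 (0.07 to 0.63, median 0.31, beside 0.35 for E2F4) and 0 were called. Of those around E2F2, 3 were called higher, with a median of 0.25. E2F5 had 2 neighbours called lower, E2F6 and E2F8 had 1 each, and E2F1 and TFDP2 had 0 called in either direction. These counts stand beside 5.68% of all tested genes called lower and 4.12% called higher.

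Patterns over the 5 libraries were compared by the Euclidean distance between log2(TPM + 1) values centred on each gene's mean. The comparison covered 11445 genes with a mean of at least 5 TPM, after genes named only by a clone were left out. Nearest to E2F1 were SLC25A25 (distance 0.0447), COX15 (0.0477) and DIP2C (0.0517), and nearest to E2F7 were ZBTB46 (0.0820), AVL9 (0.171) and VPS13C (0.183). E2F3 had no such close neighbour, with PIGP (0.320), CISD2 (0.325) and DCUN1D1 (0.355) first. For TFDP1, added to this comparison after its values were seen, ABHD2 (0.0457), HELLS (0.0510) and ZNF107 (0.125) were nearest. Their log2 fold changes were -1.20, -1.17 and -1.26, each called by limma (adjusted p = 0.00670, 0.00591 and 0.00829). Because these genes were picked for values close to those of TFDP1, folds and calls like its own follow from that choice. Among so many genes some lie near any pattern by chance.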
